A study of Mus musculus with 2 samples.

Results

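The genes described here are the Hox genes of the mouse, which were selected by name: every gene whose only symbol in the annotation of the array is Hoxa, Hoxb, Hoxc or Hoxd followed by a number. There were 33 such genes among the 18193 genes with a single-symbol probe set, and they are 33 of the 39 Hox genes listed in RefSeq (GRCm38.p6). Their RNA was measured in pooled follicles taken at postnatal day 10, with 1 Affymetrix array for wild-type mice and 1 for mice with a dnFGFR2-IIIb transgene. FGFR2-IIIb is the splice form of fibroblast growth factor receptor 2 found in epithelia, and the labels do not describe the altered form further. Each array received total RNA of about 300 pooled follicles from 3 mice of separate litters. The labels used here name no strain, sex, body site of the follicles, or promoter of the transgene. With 1 pooled array per group there is no spread between mice and no test, so every difference below is between these 2 arrays.

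Hox genes encode transcription factors that bind DNA through a homeodomain and lie in 4 clusters, HoxA to HoxD. Genes at corresponding places of the clusters form paralog groups, numbered from the 3′ end, and the genes of low number are active earlier and closer to the head in the embryo than those of high number. In adult skin, Hox genes are known for carrying positional identity in dermal fibroblasts, and Hoxc13 is known as a gene of the hair matrix and shaft, whose loss in mice leaves brittle hair that breaks off.

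Values are signal intensities in arbitrary units, and a signal was taken as present when it exceeded a floor of 10.5, the 40th percentile of all probe sets on both arrays. Each gene is represented by its brightest probe set. Signals of different probe sets depend on their probes, so that they show which genes were above the floor and how each gene compared between the arrays, but do not rank the genes by RNA level.

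Of the 33 Hox genes, 13 (39.4%) exceeded the floor on both arrays, against 63.6% of all genes measured. On at least 1 array it was 17, against 77.2% of all genes. The genes above the floor were mostly those of the middle paralog groups, together with Hoxc13 at the 5′ end of HoxC. In groups 2 to 8, 11 of 17 measured genes exceeded the floor on both arrays (64.7%, near the 63.6% of all genes). In group 9 it was 1 of 4. In groups 10 to 12 none of the 6 measured genes exceeded it on either array, in group 13 it was Hoxc13 alone of 4, and in group 1 neither Hoxb1 nor Hoxd1 did. A signal under the floor does not show that a gene was silent, since a probe set can be weak.

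**Figure D1:**
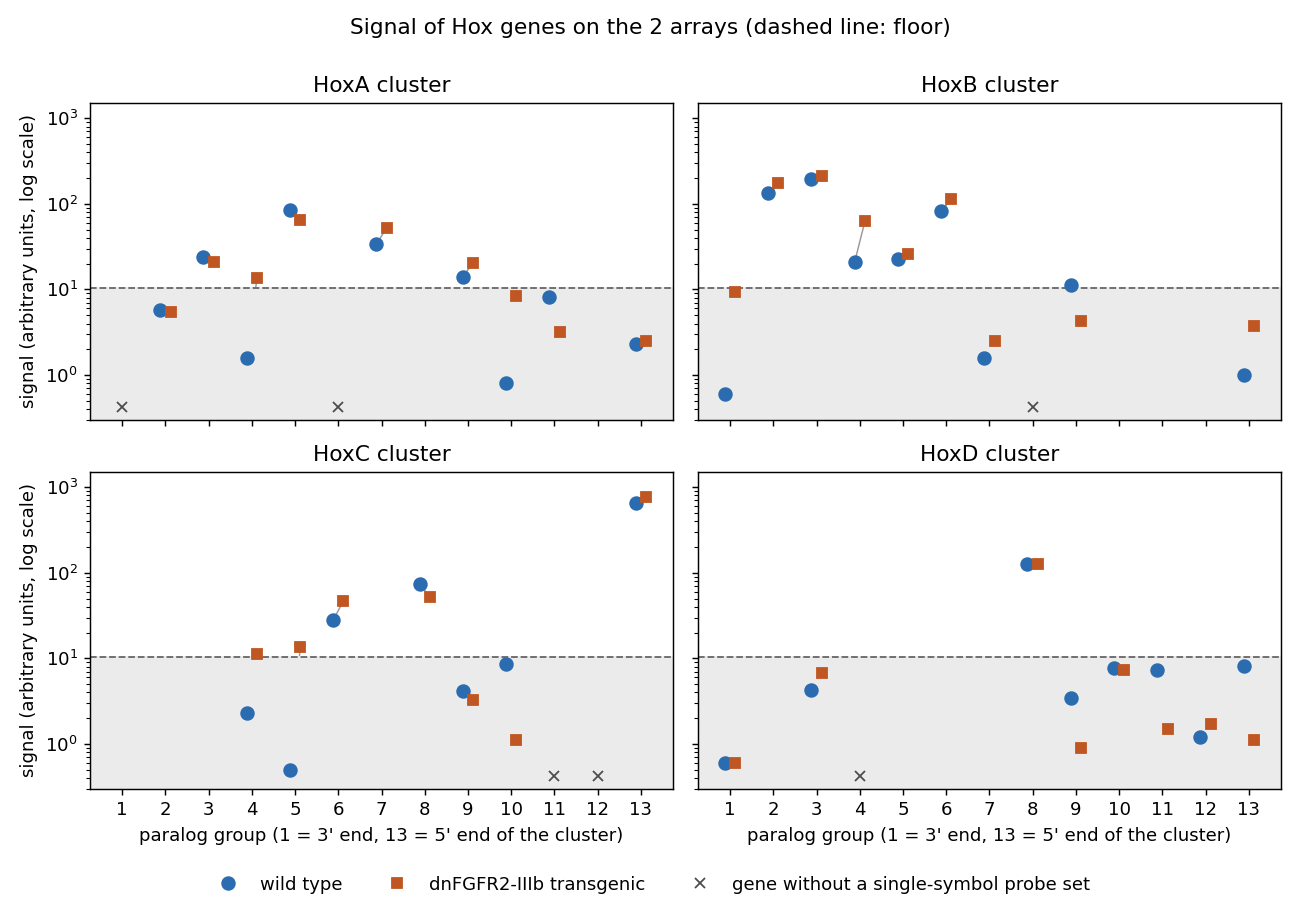
Signal (log scale, arbitrary units) of each Hox gene against its paralog group, 1 panel per cluster, with a circle for the wild-type array, a square for the transgenic array and a cross for a gene without a single-symbol probe set. The dashed line is the floor of 10.5, and the circles and squares above it lie mostly between groups 2 and 9, apart from Hoxc13 at 655 and 767.

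For the sequence context, the RefSeq table of promoter windows held 22 of the 39 Hox genes, in 24 windows. The following are the 250 bases before the transcription start for 4 genes above the floor: Hoxb4, the gene with the largest ratio; Hoxd8, the one HoxD gene present; and Hoxa5 and Hoxa7, which read in opposite directions within 1 cluster. They are given 5′ to 3′ on the strand of the gene (GRCm38.p6: chr11:96318017-96318266 and chr2:74704365-74704614 on the plus strand, chr6:52204588-52204837 and chr6:52218574-52218823 on the minus strand). Capitals mark TAAT on either strand, the core that homeodomains bind.
Hoxb4: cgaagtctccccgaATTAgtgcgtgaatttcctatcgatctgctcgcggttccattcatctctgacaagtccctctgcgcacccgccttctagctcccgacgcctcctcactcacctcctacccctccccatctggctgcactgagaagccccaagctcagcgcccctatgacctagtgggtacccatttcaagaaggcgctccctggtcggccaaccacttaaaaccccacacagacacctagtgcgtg
Hoxd8: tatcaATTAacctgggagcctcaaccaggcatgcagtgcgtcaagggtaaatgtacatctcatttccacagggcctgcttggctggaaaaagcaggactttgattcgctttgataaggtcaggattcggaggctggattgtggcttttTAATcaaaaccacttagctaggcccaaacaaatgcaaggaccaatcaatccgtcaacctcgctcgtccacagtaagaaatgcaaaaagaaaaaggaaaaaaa
Hoxa5: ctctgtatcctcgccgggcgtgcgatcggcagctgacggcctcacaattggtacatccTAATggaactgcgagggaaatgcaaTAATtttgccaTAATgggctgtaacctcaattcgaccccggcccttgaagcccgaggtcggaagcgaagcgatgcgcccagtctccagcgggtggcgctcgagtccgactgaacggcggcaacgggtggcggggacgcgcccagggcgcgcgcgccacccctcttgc
Hoxa7: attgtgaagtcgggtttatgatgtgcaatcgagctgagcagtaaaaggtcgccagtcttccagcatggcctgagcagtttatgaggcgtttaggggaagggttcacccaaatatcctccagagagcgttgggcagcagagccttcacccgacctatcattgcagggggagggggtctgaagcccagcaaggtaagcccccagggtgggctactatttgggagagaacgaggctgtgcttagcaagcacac
The core occurred once in the Hoxb4 window, at 236 bases before the start, at 245 and 102 bases in Hoxd8, at 192, 167 and 156 bases in Hoxa5, and at no place in Hoxa7. Over all Hox windows, 18 of 24 (75.0%) held TAAT, against 54.9% of the 32851 windows of all genes in the table. For the longer motif TGATNNAT, which Hox proteins bind together with Pbx cofactors, searched on both strands, it was 4 of 24 (16.7%) against 7.68%. The TATA box, searched as TATAAA, occurred on either strand in 4 (16.7%) against 12.4%, and on either strand the sequence AGGTCA, which retinoic acid receptors and other nuclear receptors recognise, in 6 (25.0%) against 14.02%. TAAT and TGATNNAT can overlap, and TAAT is short enough to occur in most windows. The number of CG dinucleotides had a median of 12.5 in the Hox windows and 6 over all genes. It was 10.5 in the 6 windows of genes above the floor on both arrays and 13 in the 14 windows of genes above it on neither, with ranges from 3 to 28 and from 2 to 35 that overlap almost entirely. A match describes the sequence and is not a binding site.

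In HoxC, the 5′ gene Hoxc13 was bright on both arrays and read alike on them. Its probe set, 1425874_at, gave 655 in wild type and 767 in the transgenic pool, 1.17-fold higher there, a log2 ratio of 0.23. For scale, probe sets that read the same gene differed in their log2 ratios with an SD of 0.36 at this brightness, a technical spread that leaves out differences between mice. Hoxc13 is thus within this spread. Its signal stood well clear of background, unlike that of its neighbour Hoxc10, which read 8.50 and 1.10, and Hoxc9, which read 4.20 and 3.30. Hoxc11 and Hoxc12, between Hoxc13 and Hoxc10, have no single-symbol probe set, so that the border between Hoxc13 and the genes under the floor cannot be placed.

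Farther towards the 3′ end of HoxC, Hoxc8, a gene of thoracic identity in the skeleton, read 74.4 in wild type and 51.4 in the transgenic pool. This is 1.45-fold lower, and the log2 ratio of -0.53 is just beyond the SD of 0.52 for dim genes. Hoxc6, another gene of the thoracic region, read 28.1 and 46.7 at its chosen probe set (1.66-fold higher), but 30.0 and 19.8 at a probe set nearly as bright, with log2 ratios of 0.73 and -0.60. A further Hoxc6 probe set read 3.50 and 22.9. The direction for Hoxc6 is therefore not settled. The chosen probe set carries the suffix _x_at, which marks probes that can match other transcripts. Hoxc4 (2.30 and 11.1) and Hoxc5 (0.50 and 13.6) exceeded the floor on the transgenic array alone, by little.

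HoxB had the most genes present, 5 of 9 on both arrays (55.6%, against 63.6% of all genes). Those 5 all read higher on the transgenic array, except that Hoxb3 turned slightly lower when the arrays were scaled to equal medians. Over all genes 49.9% had a ratio above 1, and a count of 5 is not read as a result about HoxB. The gene with the largest ratio was Hoxb4, known for expanding blood stem cells. It read 20.7 in wild type and 62.5 in the transgenic pool at 1460379_at, 3.02-fold higher, a log2 ratio of 1.59 against an SD of 0.52. Its other probe set, 1451761_at, read 8.30 and 3.20, under the floor on both arrays, so that this difference rests on 1 probe set.

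The remaining HoxB genes differed less. Hoxb2 and Hoxb3 are known for setting segment identity in the hindbrain. Hoxb2 read 134 and 173, 1.29-fold higher on the transgenic array. Hoxb3 read 196 and 209 at its brighter probe set (log2 ratio 0.09) and 52.2 and 62.6 at the other (0.26). Hoxb6 read 82.4 and 112, 1.36-fold higher, a log2 ratio of 0.45 beside an SD of 0.41 for genes of middle brightness. Hoxb5 read 22.6 and 26.1 (0.21). Apart from Hoxb4 and Hoxb6, these ratios are smaller than the spread between probe sets. Hoxb9 passed the floor in wild type alone, at 11.2 and 4.30, and Hoxb1, Hoxb7 and Hoxb13 lay under it on both, with signals from 0.60 to 9.40.

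HoxA had 4 of 9 measured genes above the floor on both arrays (44.4%, against 63.6% of all genes), and they went both ways. Hoxa5, needed for lung and axial development, read 84.5 and 65.0 at its chosen probe set and 51.5 and 39.5 at the other, with log2 ratios of -0.38 at both. The probe sets of Hoxa5 agree closely, although the size, 1.30-fold lower, is within the SD of 0.41. Hoxa7 read 33.8 and 52.4, 1.55-fold higher, a log2 ratio of 0.63 that exceeds the SD of 0.52. Both genes lie in the middle of the cluster.

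The other HoxA genes were near the floor. Hoxa3, a gene of thymus and parathyroid development, read 24.1 and 21.0 at its chosen probe set, 1427433_s_at, whose probes can match several transcripts. Hoxa3 read 22.2 and 9.60 at another, and under the floor at both of its remaining probe sets. Without probe sets that can match several transcripts, 11 Hox genes were present on both arrays, and Hoxa3 and Hoxb6 were no longer among them. Hoxa9, known from blood progenitors and leukaemia, read 14.1 and 20.5 at one probe set and 15.1 and 6.70 at the other, in opposite directions. Hoxa4 read 1.60 and 13.6. Hoxa2, Hoxa10, Hoxa11 and Hoxa13 lay under the floor, between 0.80 and 8.40.

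In HoxD, 1 of 8 measured genes was present (12.5%, against 63.6% of all genes). Hoxd8 read 127 and 128 at 1431099_at, a log2 ratio of 0.01 that turned to -0.13 with equal medians and 0.20 with equal spiked controls. Its dimmer probe set, 1433638_s_at, read 19.6 and 54.0, a log2 ratio of 1.46. The log2 ratios of these 2 probe sets lie 1.45 apart. The SD of single probe sets about the mean of their gene was 0.41 for genes of middle brightness such as Hoxd8. It was 0.52 for dim genes, and a difference between 2 probe sets spreads wider than the SD of a single one. The suffix _s_at marks probes shared by several transcripts. Hoxd1, Hoxd3, Hoxd9, Hoxd10, Hoxd11, Hoxd12 and Hoxd13 all lay under the floor on both arrays, with signals from 0.60 to 8.20, among them the genes known for patterning the digits and genital tubercle.

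**Figure D2:**
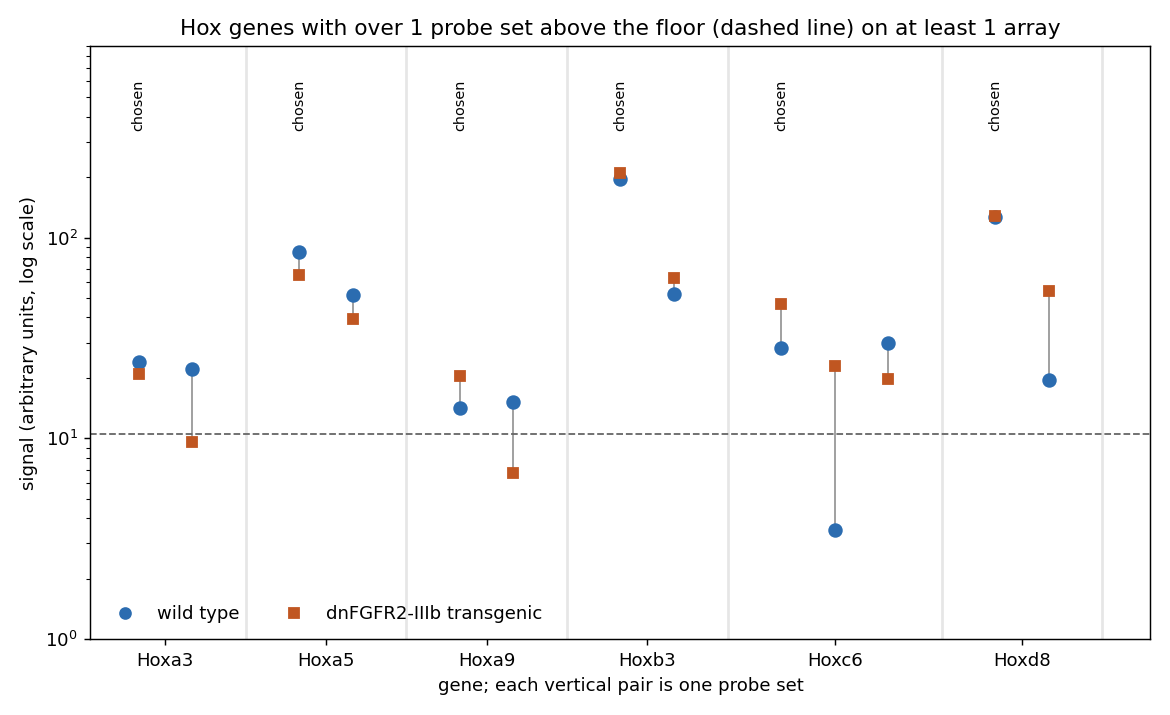
Signals (log scale, arbitrary units) of every probe set above the floor of 10.5 (dashed line) on at least 1 array, for the 6 Hox genes with more than 1 such probe set; circles are the wild-type array, squares the transgenic array, and "chosen" marks the brightest. The pairs of Hoxa5 and Hoxb3 run the same way, while those of Hoxa9 and Hoxc6 cross and those of Hoxd8 differ in size.

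Over all clusters, 1 of the 13 Hox genes present on both arrays, Hoxb4, was at least 2-fold higher in the transgenic pool and 0 were at least 2-fold lower. The shares over all 11566 genes present on both arrays were 1.6% higher and 1.58% lower, 3.18% together, and a single gene of 13 says nothing of the Hox genes as a group. Of the 13 genes, 10 had a ratio above 1, against 49.9% of all genes, and 8 did with equal medians. Their median log2 ratio was 0.23 and that of all genes above the floor on both arrays 0.00. The ratio exceeded the SD of its brightness class in 6 of the 13 genes: Hoxb4, Hoxc6, Hoxa7, Hoxa9, Hoxb6 and, towards lower signal, Hoxc8. The same held for 22.3% of all genes (33.3% of the dim, 20.6% of the middle and 13% of the bright ones), and 5 of the 6 Hox genes were dim, so that the count is not read as a result about the Hox genes. For Hoxc6 and Hoxa9 another probe set went the other way. Among the 4 genes in which more than 1 probe set passed the floor on both arrays, the directions were the same in 3. Hoxd8 counts among these 3 although its log2 ratios were 0.01 and 1.46. The 4 Hox genes present on 1 array alone, Hoxa4, Hoxb9, Hoxc4 and Hoxc5, lay less than 2-fold from the floor, a distance that 14.8% of all such genes reached.

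**Figure D3:**
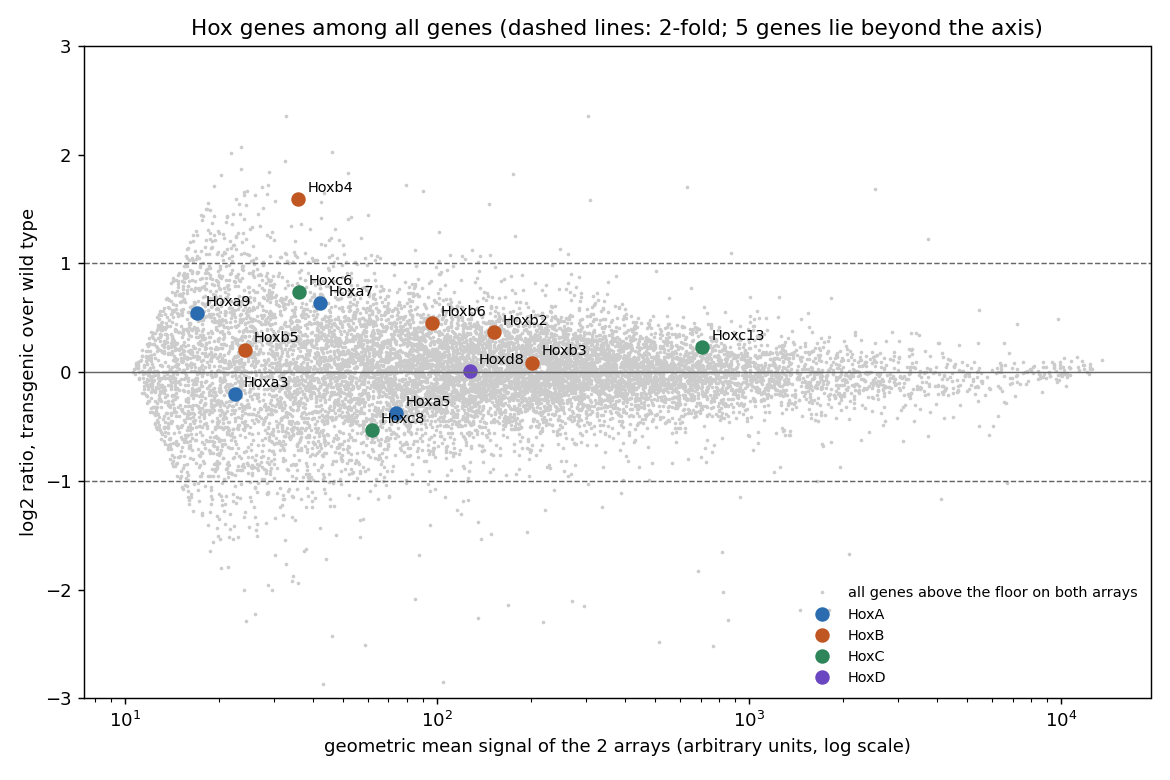
Log2 ratio of transgenic over wild type against the geometric mean signal of the 2 arrays (log scale, arbitrary units), for every gene above the floor on both arrays (grey) and for the 13 Hox genes (coloured by cluster). Hoxb4 lies above the dashed 2-fold line at 1.59, the other 12 lie between -0.53 for Hoxc8 and 0.73 for Hoxc6, and 5 other genes fall outside the axis.

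Other transcripts inside the clusters were read by few probe sets: RefSeq lists 31 further genes there, 5 of them with a single-symbol probe set. Hoxb5os, listed between Hoxb7 and Hoxb6 and named as antisense to Hoxb5, gave the highest signal of these, 691 and 1016 at 1447886_at, 1.47-fold higher on the transgenic array. It was chosen after its values were seen. Which strand its probes read is not given in the sources used here, and the gene overlaps the region of Hoxb6, so that the transcript cannot be told from its neighbours with certainty. Hoxd3os1 read 22.4 and 27.2 at one probe set and under the floor at the other. Gm15050, between Hoxa3 and Hoxa4, read 8.0 and 20.2, and Hoxa11os and Gm38462 lay under the floor.

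Of the genes of TALE homeodomain proteins, a class that includes partners of Hox proteins, 6 of 10 measured were above the floor on both arrays. This is 60%, against 63.6% of all genes. Pbx3, which binds DNA as a partner of Hox proteins, was the one that passed 2-fold, at 58.4 and 24.7 (2.36-fold lower, log2 ratio -1.24), with its other probe set under the floor. Its chosen probe set has the suffix _s_at, so that its probes can match several transcripts. Without probe sets of this kind Pbx3 dropped out, and the median over members present on at least 1 array was -0.11. Over all genes 1.58% were 2-fold lower, and a single gene says nothing of the list. Meis1, a partner of the Hox and Pbx pair, read 24.6 and 34.6 (0.49), and of the TALE repressors Tgif1 read 98.3 and 140 (0.51) and Tgif2 62.3 and 44.5 (-0.49). The median log2 ratio of the 6 genes was 0.05, beside 0.00 for all genes.

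The chromatin regulators that hold Hox clusters silent or active gave no member 2-fold apart. Over all genes only 3.18% were, so that this is not read as a result about the regulators. Of the Polycomb group, the silencing complexes that set and read methylation of histone H3 at lysine 27, 29 of 30 measured genes were above the floor on both arrays. The share over all genes was 63.6%, and the median log2 ratio of the group was 0.10. Ezh2, the methyltransferase of this mark, read 196 and 263 (0.43), and Phc3, a subunit of the complex that reads it, 52.2 and 71.3 (0.45). Pcgf2 (0.88) and Phf19 (0.54) lay farther out, but each was dim and went the other way at another probe set. Of 12 trithorax group genes and demethylases of the mark, 8 had ratios above 1, against 49.9% of all genes, with a median of 0.11. Kmt2a, the methyltransferase that maintains Hox activity, read 47.1 and 71.1 (0.59, with 0.25 at its other probe set), Rbbp5 183 and 231 (0.33) and Ash2l 369 and 463 (0.33), both subunits of such complexes. Kdm6a, a demethylase encoded on the X chromosome, read 156 and 275 (0.82), and 1.18 and 0.53 at its other probe sets above the floor. The pools differed in sex-linked genes too: Xist, the RNA of the inactive X chromosome, gave 352 and 1146, and the Y-linked Eif2s3y gave 191 in wild type and a signal under the floor in the transgenic pool. The part of this difference in the ratio of Kdm6a, or of any Hox gene, was not tested. With equal medians, the medians of both lists, over members present on at least 1 array, fell just below 0, at -0.04 and -0.03.

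Retinoic acid is known to activate 3′ Hox genes in the embryo, and 4 of the 12 genes of its supply and reception that were present on both arrays were at least 2-fold lower in the transgenic pool. None was 2-fold higher, the shares over all genes were 1.58% and 1.6%, and the median of the list was -0.02. With equal spiked controls 2 were lower, Aldh1a3 and Rarb, and 1 higher, Aldh1a2, which read 18.4 and 36.7 and is another enzyme that makes retinoic acid (named after its values were seen). Aldh1a3, which makes retinoic acid, read 281 and 39.1 (log2 ratio -2.85), and Rarb, a retinoic acid receptor, 48.4 and 19.1 (-1.34). Crabp2, which carries retinoic acid to the nucleus, read 571 and 265 (-1.11), and Stra6, the membrane receptor for retinol binding protein, 345 and 163 (-1.08). The Hox genes of groups 2 and 3 present here, Hoxa3, Hoxb2 and Hoxb3, had log2 ratios of -0.20, 0.37 and 0.09 on the same arrays. At other probe sets it was 0.26 for Hoxb3 and, with the transgenic signal under the floor, -1.08 for Hoxa3. Hoxb4, the only gene of group 4 present on both arrays, had 1.59. A link of these genes with retinoic acid was not tested.

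Genes reported as targets of Hoxc13 had ratios close to 1, apart from Foxq1. All 6 measured genes were above the floor, none was 2-fold apart, and the median log2 ratio was 0.05. The hair keratins Krt35 (6000 and 7240, 0.27), Krt32 (3535 and 3028, -0.22) and Krt82 (2000 and 2155, 0.11) differed little. Foxq1, a transcription factor of the hair medulla, read 408 and 257 (-0.67), and -0.27 at its other probe set. Whether ratios are compressed at signals as high as those of the keratins was not tested.

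Genes that border the clusters and other homeobox genes were measured for comparison. Of 20 measured neighbours, each within 4 coding genes of a cluster, 17 were above the floor on both arrays, a larger share than of the Hox genes. Their median log2 ratio was -0.13, and none of the 17 was 2-fold apart. Skap1, the gene next to HoxB, passed the floor in the transgenic pool alone, at 9.30 and 31.3, which is at least 2.98-fold higher. Among the 17, Atf7, near HoxC, was the farthest out at 26.3 and 14.9 (-0.82), followed by Nfe2l1 near HoxB (-0.31), Calcoco1 beside HoxC (0.27) and Hnrnpa1 near HoxC (0.26, with -0.06 and 0.96 at other probe sets). Of the ParaHox and Evx genes, the nearest relatives of the Hox genes, 1 of 8 was above the floor on both arrays: Cdx2, at 14.7 and 22.9. Of the 27 other homeobox genes measured, 20 were above it on both. Of these, 2 were 2-fold higher, Irx1 (14.5 and 74.2) and Dlx5 (16.1 and 40.7), and 0 lower, against 1.6% and 1.58% of all genes. Barx2, a homeobox gene of the follicle, passed the floor in wild type alone, at 40.5 and 1.40, which is at least 3.86-fold lower. Among the 20, Tshz3 (0.68) and Irx3 (142 and 90.2, -0.65) followed, and their median was -0.01.

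**Figure D4:**
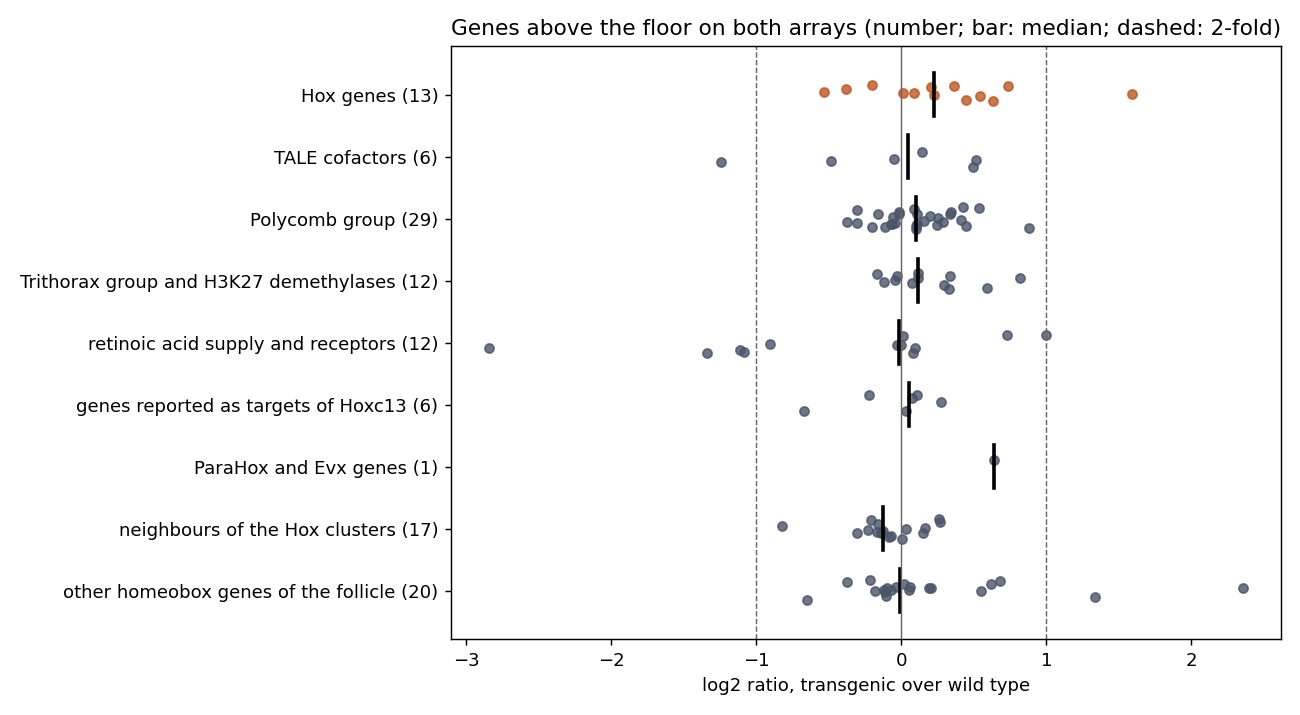
Log2 ratio of transgenic over wild type for the genes of each list that passed the floor on both arrays, with their number in brackets, 1 point per gene, a bar at the median and dashed lines at 2-fold; vertical scatter has no meaning. The Hox genes have a median of 0.23, and the retinoic acid list holds the lowest point, Aldh1a3 at -2.85.

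The markers of follicle layers fit the label of the tissue, and those of other cells give the context for the Hox signals. All 15 measured markers of the hair matrix, cortex and cuticle (median log2 ratio 0.05), all 9 of the inner root sheath (0.00) and all 11 of the bulge, basal layer and outer root sheath (-0.18) were above the floor on both arrays, and none was 2-fold apart. Markers of the dermal papilla and sheath were present on both arrays for 11 of 15 genes (median 0.11), and those of fibroblasts and dermis for 9 of 10 (0.24). The summed signal of the fibroblast markers was 2575 in wild type and 3417 in the transgenic pool. The brightest of them was Dcn, the gene of the matrix proteoglycan decorin, at 985 and 1590. Of the 9 fibroblast markers, 6 had ratios above 1, while Pdgfra (-0.15), Lum (-0.33) and Postn (-0.12) read lower on the transgenic array. The log2 ratios behind the fibroblast median of 0.24 ran from -0.33 to 0.69. Since these are whole follicles, fewer cells of a type and less RNA per cell cannot be told apart. Of the immune markers, relevant to Hoxb4 and Hoxa9, 3 of 10 were above the floor on both arrays (0.60). The summed signal of all 10 was 111 and 202. Ptprc, found on all white blood cells, lay under the floor on both arrays at 0.60 and 9.0. Of the 7 immune markers present on at least 1 array, 6 had ratios above 1. Among these were H2-Aa at 7.60 and 42.4, under the floor in wild type, and Cd74 at 11.2 and 22.9. Markers of the interfollicular epidermis (6 of 10 present on both arrays, median 0.54) went both ways, with involucrin (Ivl) at 3110 and 683 and Krt77, an epidermal keratin, at 16.6 and 63.8, and their summed signal was 3574 and 1425. The remaining lists were melanocytes (8 of 8 present on both arrays, -0.21), Schwann cells and nerve (4 of 4, -0.89), endothelium (3 of 6, -0.17) and muscle (3 of 9, -0.23). The part of any of these cell types in the Hox ratios was not tested.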

How the data were processed

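The deposited file holds one linear signal intensity per probe set. The authors scaled both arrays to a trimmed mean (2% off each end) of 100.0, as the values show, and the summary algorithm is not given in the sources used here. Per the file headers, both arrays were hybridised together on one station. Both were rescaled to one trimmed mean over 45037 non-control probe sets, a negligible change. Signals under the floor (40th percentile, 10.5) were set to it before log2 ratios. Of 27 controls that match no mouse transcript, 3 passed the floor in the transgenic pool, at up to 15.8, and 0 in wild type.

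Each gene took its brightest single-symbol probe set. All 33 Hox symbols matched RefSeq gene identifiers, and 3 probe sets annotated to several Hox genes were left out. The SD between probe sets was pooled within tertiles of brightness. No test was possible with 1 array per group.

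Every Hox gene above the floor was named, and from each of 8 related lists up to 4 genes farthest from a log2 ratio of 0 among those above the floor on both arrays, plus any gene at least 2-fold from the floor on 1 array alone (Skap1 and Barx2, added after their values were seen). For the 11 marker lists counts and medians are given. Dcn, Ptprc, H2-Aa, Cd74, Ivl and Krt77 were named in addition, with their values known. The members and lists were chosen with earlier results of these data known. The procedure was tested on simulated data, with Python 3.11.15, pandas 2.3.3 and statsmodels 0.14.6. Alternatives were other scalings, floors, fold thresholds and choices of probe set.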

Additional observations from a re-analysis of the deposited data

How the results depend on the processing

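The number of Hox genes above the floor on both arrays, 13, was within 1.5 times of this under each scaling, floor and choice of probe set tried. Hoxb4 passed 2-fold under each of these except a floor at the 60th percentile, which lies above its wild-type signal and left 0 Hox genes 2-fold apart. With the floor at the 20th percentile there were 3, with Hoxa11 and Hoxb9 lower, and with a 1.5-fold threshold 3, with Hoxa7 and Hoxc6 higher. The Hox median log2 ratio of 0.23 became 0.33 with a pseudocount in place of the floor, 0.088 without probe sets that can match several transcripts, and 0.44 with equal spiked controls, a scaling that moved the median of all genes to 0.19. Equal medians moved the median of all genes to -0.13 and that of the Hox genes to 0.15. Over all genes the split of 185 higher and 183 lower became 117 and 295 with equal medians, 140 and 231 with quantile normalization, 136 and 235 with loess and 313 and 104 with equal spiked controls. Of the 12 retinoic acid genes, 4 were lower. It was 5 with equal medians, 3 with the floor at the 60th percentile, 3 with the pseudocount and 2 with equal spiked controls. With thresholds of 1.5-fold and 3-fold it was 5 and 1. The count of 7 genes 2-fold apart in the related lists became 12 and 3 with the floors at the 20th and 60th percentiles, 4 with the pseudocount, and 19 and 2 with thresholds of 1.5-fold and 3-fold. Among single Hox genes, Hoxa9 turned to -0.10 with the mean over probe sets and Hoxc6 to -0.60 without probe sets that can match several transcripts. Equal spiked controls and a floor at the brightest control without a target (15.8) were chosen with the data known. No paired analysis was possible because each group has 1 array. Signals near the floor limit what can be said of most Hox genes: 12 of the 13 had both signals above 15.8, and the number of arrays limits the precision of all values.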
